A study of Mus musculus with 6 samples.

Results

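The carbonic anhydrase family was followed in cultured bone marrow stromal cells (BMSCs) from mice lacking NONMMUT002667, a long non-coding RNA gene (KO), and from wild-type (WT) mice. The members were the 10 genes Car12, Car2, Car3, Car4, Car5b, Car6, Car8, Car9, Car11 and Car13, taken as the array probes that carry these gene names. They had 14 of the 56605 different probes on the array and were 10 of the 27195 genes named on it. The family was picked because the Car12 signal was much lower in KO cells, so the Car12 difference is a description and carries no test. It was 9.44-fold lower in KO cells by the group means, with KO replicate 2 not well above background. With that array raised to its lowest signal well above background, the difference was 6.52-fold, and without that array it was 5.17-fold. Car6, Car11 and 2 of the 3 Car3 probes also read lower on every KO array than on any WT array. Car5b and 1 of the 2 Car9 probes read higher on every KO array. Over all tested probes, 9.57% read lower in this way and 12.6% higher. No member passed the adjusted threshold.

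Each group held 3 samples, and each sample was labelled with 1 dye (Cy3) and hybridised to 1 array. Per the labels' protocols, femurs of NONMMUT002667-KO and WT mice were crushed and digested with collagenase, and Sca-1+ CD29+ cells without CD45 or CD11b were sorted from them, grown close to confluence and used at first passage. All 6 samples are labelled male. The strain, the age, the kind of deletion and the number of animals behind a sample are not given in the sources used here, so the spread below is that between these samples and may be technical. The description and extraction fields speak of human blood, against the titles, the organism and the series text, which were followed.

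Carbonic anhydrases are zinc enzymes that turn carbon dioxide and water into bicarbonate and a proton, and back. Their isoforms differ in where they work: in the cytosol (Car2, Car3, Car13), in mitochondria (Car5b), outside the cell on a membrane anchor (Car4, Car9, Car12), or in secretions (Car6). Car8 and Car11 keep the fold but have lost the catalytic zinc site. In bone, Car2 supplies the protons that osteoclasts secrete to dissolve mineral, and it is also a main enzyme of red cells. Car9 is a textbook target of the hypoxia-inducible factors, which bind DNA at sites with the core letters ACGTG or GCGTG. Only ACGTG was searched for here.

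Upstream DNA was available for 6 members in the RefSeq promoter table (build GRCm38.p6). The 250 bases before the start are shown for the membrane enzymes Car12 and Car9 and for the secreted Car6. The family was picked on Car12, and Car9 is the hypoxia target. Of the other members with a window, only Car6 held ACGTG. Sequences run 5′ to 3′ on the gene's strand, and capitals mark ACGTG on either strand. They lie at chr9:66713436-66713685 (plus strand) for Car12, chr4:43506776-43507025 (plus strand) for Car9 and chr4:150201136-150201385 (minus strand) for Car6.
Car12: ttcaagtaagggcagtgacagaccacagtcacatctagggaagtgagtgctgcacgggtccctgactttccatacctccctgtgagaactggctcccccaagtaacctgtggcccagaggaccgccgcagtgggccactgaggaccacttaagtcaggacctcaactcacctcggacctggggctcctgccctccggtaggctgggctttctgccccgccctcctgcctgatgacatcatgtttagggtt
Car9: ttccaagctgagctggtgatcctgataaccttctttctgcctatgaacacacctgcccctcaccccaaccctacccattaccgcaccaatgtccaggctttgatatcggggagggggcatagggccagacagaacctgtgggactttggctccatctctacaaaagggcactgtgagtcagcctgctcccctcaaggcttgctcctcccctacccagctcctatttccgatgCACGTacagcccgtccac
Car6: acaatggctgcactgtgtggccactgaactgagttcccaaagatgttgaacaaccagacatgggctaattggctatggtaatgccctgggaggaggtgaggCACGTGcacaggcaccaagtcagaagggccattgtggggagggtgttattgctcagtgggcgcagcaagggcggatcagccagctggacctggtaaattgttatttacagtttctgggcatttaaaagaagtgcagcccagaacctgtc
The Car12 window begins 1140 bases inside the annotated gene, so it precedes a later start of that gene. Car9 held 1 match, which begins 18 bases before the start. Car6 held 2 matches that overlap on opposite strands, the first 149 bases before the start. No ACGTG was found in the windows of Car12, Car4, Car5b or Car11. The form GCGTG was not searched for, and on either strand it occurs in the windows of Car5b and Car11. Of 32851 windows of this length in the table, 16.6% held at least 1 match. The windows of Car4, Car5b and Car11 are not printed because no result turns on them.

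Signals are given below as log2 of the processed signal minus the 75th percentile of that array, so 0 is the level of a probe at that percentile and a difference of 1 is a doubling. A probe counted as measured on an array where the scanner software called it well above background, and it was tested with limma if this held on every array of at least 1 group. Of the 14 probes, 10 probes for 7 genes were tested among 28607 probes for 15371 genes. Car12 and 2 of the Car3 probes were well above background on all WT arrays but not on all KO arrays, so they entered the test through WT cells alone. Car2, Car4 and Car8 were not tested.

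The targeted RNA could not be checked, since 0 probes carry a NONMMUT name. The share of spots well above background, controls left out, was 49.0% to 53.0% on KO arrays, against 54.3% to 56.7% on WT arrays. Probes well above background on none of the 6 arrays (22283) had a median difference of 0.56 between KO and WT, and 86.8% of them read higher on KO arrays. The sort markers Ly6a (Sca-1) and Itgb1 (CD29) had differences of -0.09 and -0.08 (limma adjusted p = 0.911 and 0.766). Ptprc (CD45) and Itgam (CD11b), against which the cells were sorted, were well above background on all 6 arrays, with differences of 0.20 and 0.12 (limma adjusted p = 0.519 and 0.615). Their means in KO and WT cells were 3.52 and 3.32 for Ptprc and 4.14 and 4.02 for Itgam. Those of the sort markers were 3.40 and 3.48 for Ly6a and 5.41 and 5.49 for Itgb1. Xist was well above background on KO replicate 1 and WT replicate 3, 1 array of each group, although all samples are labelled male. The brighter probe of the Y-linked gene Eif2s3y read -6.32 and -6.72 on those arrays, against 1.04 to 1.17 on the others. By these genes, those samples read as female, against their label. Of the Y-linked Kdm5d, 1 probe was well above background on all 6 arrays. All arrays came from 1 slide and 1 scan, where KO arrays lie in row 2 and WT arrays in row 1, so row and group cannot be told apart.

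At the 0.05 threshold of the limma adjusted p, 0 of the 10 member probes were called, against 17 of all 28607 probes (0.0594%). At an unadjusted p under 0.05, 4 of the 9 tested probes other than Car12 were lower in KO cells and 1 was higher, against 7.28% and 8.24% of all probes. All KO values lay below all WT values for 5 of the 10 probes, which belong to Car12, Car3, Car6 and Car11, beside 9.57% of all probes, and 5 probes were at least 2-fold lower by their means (Car12, the 3 of Car3, and Car6), beside 1.18%. All KO values lay above all WT values for 2 of the 10, in Car5b and Car9, beside 12.6% of all probes. Since the family was chosen on this contrast, these counts describe it and support nothing.

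**Figure D1:**
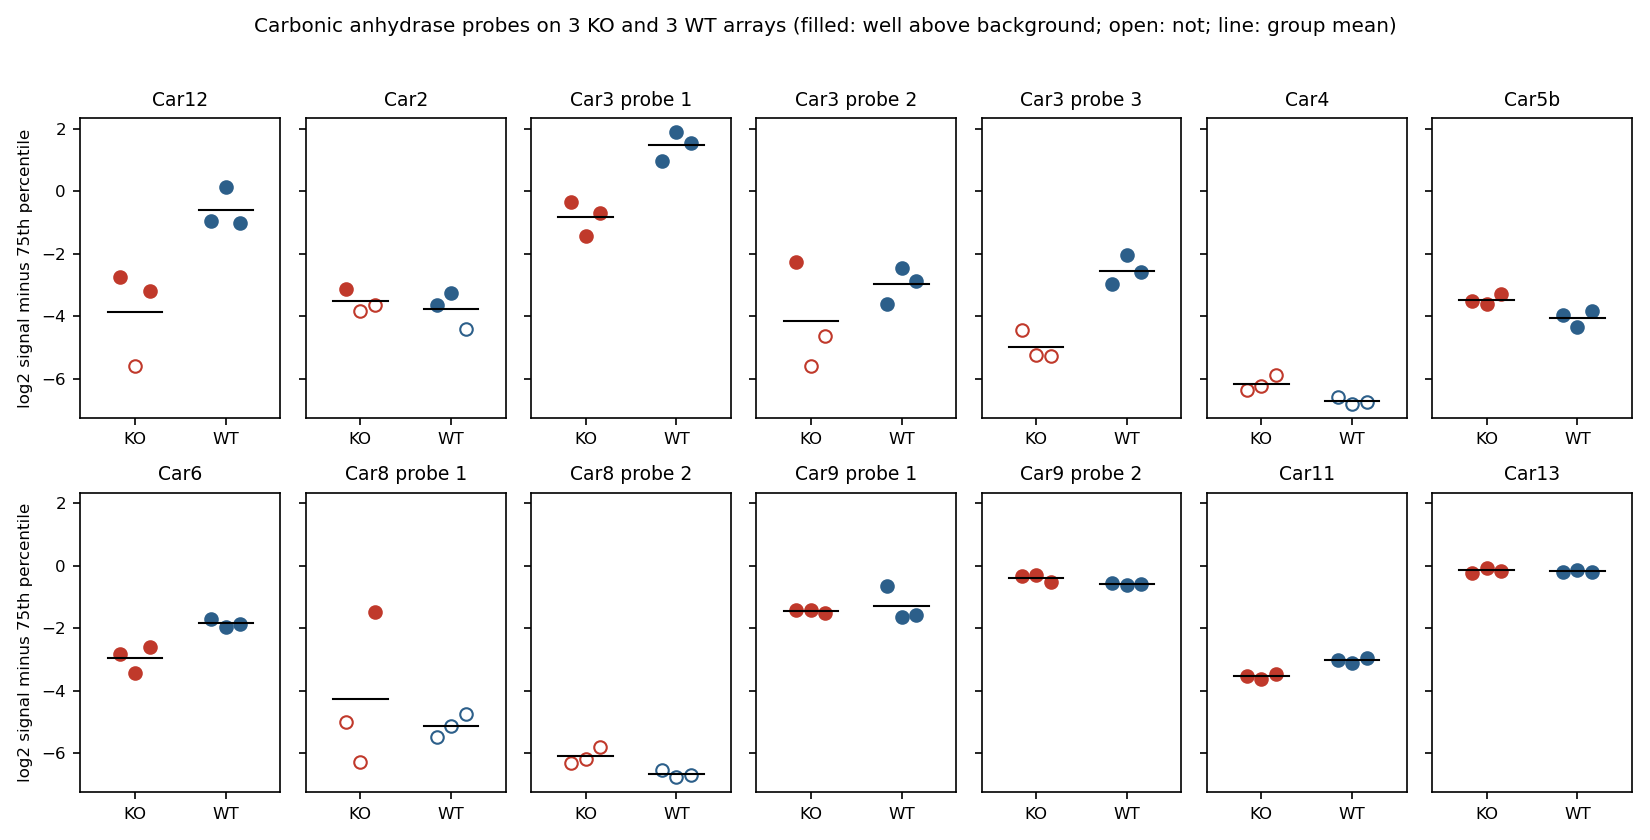
Log2 signal minus the array's 75th percentile for the 14 carbonic anhydrase probes, 1 point per array, KO left (red) and WT right (blue); filled points were well above background, open points were not, and lines are group means. Car12, 2 of the 3 Car3 probes, Car6 and Car11 separate with KO below WT, Car5b and the second Car9 probe with KO above WT, and the open points of Car4 and of the second Car8 probe lie near the bottom of the scale in both groups.

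Car12, a membrane enzyme with its active site outside the cell, read lower in KO cells than in WT cells by its 1 probe. That probe (A_52_P646858, chr9:66614036-66614095, plus strand, build mm9) read -2.76, -5.59 and -3.20 in KO replicates 1 to 3, against -0.94, 0.13 and -1.02 in WT replicates 1 to 3. Every KO array lay below every WT array, and the nearest values of the groups were 1.74 apart. KO replicate 2 was the lowest and was the only one of the 6 not well above background. The mean was -3.85 ± 1.52 in KO cells and -0.61 ± 0.64 in WT cells (SD, n = 3 each), a difference of -3.24 (SE 0.74), which is 9.44-fold lower in KO.

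The size of the Car12 difference moved with the treatment of that dim array and with the change to normexp and quantile normalization, while its sign did not. Without KO replicate 2 it was -2.37, or 5.17-fold lower in KO. With KO replicate 2 raised to the lowest signal that was well above background on its array (-3.99), the difference was -2.71, or 6.52-fold. With that normalization it was -2.24, or 4.71-fold. Without the 2 arrays with Xist signal it was -3.99, or 15.9-fold. In these bulk samples, fewer cells that make Car12 and less Car12 RNA per cell cannot be told apart.

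Car9, another membrane enzyme, was well above background on all 6 arrays and had 2 probes with small differences. The first (chr4:43526023-43526082, plus strand, mm9) read -1.41, -1.42 and -1.51 in KO cells, against -0.63, -1.63 and -1.56 in WT cells. The groups overlapped, with WT replicate 1 above the other 5 arrays. The difference was -0.17 (SE 0.26, 95% interval -0.80 to 0.45, limma adjusted p = 0.808), and it was 0.15 without WT replicate 1. The second (chr4:43526518-43526577, plus strand, mm9) read -0.33, -0.28 and -0.52 in KO cells, against -0.54, -0.60 and -0.57 in WT cells. Here every KO array lay above every WT array, by as little as 0.02 between the nearest values, and the difference was 0.20 (SE 0.09, 95% interval -0.01 to 0.40, limma adjusted p = 0.348). Car4, which sits on a lipid anchor at the cell surface, was well above background on no array, so no level or fold is given for it.

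Car6, the secreted isoform known from saliva, had 1 probe (chr4:149561287-149561346, minus strand, mm9). It read -2.81, -3.42 and -2.58 in KO cells, against -1.69, -1.96 and -1.84 in WT cells. The KO arrays were all lower than the WT arrays, with 0.63 between the nearest values, and KO replicate 2 was again the lowest. The difference was -1.11 (SE 0.21, 95% interval -1.62 to -0.60), or 2.16-fold lower in KO, and it did not pass the threshold (limma adjusted p = 0.0946).

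Car3, a cytosolic isoform of low activity that is abundant in muscle and fat, had 3 probes. The first (A_51_P431329, chr3:14871781-14871840, plus strand, mm9) read -0.33, -1.42 and -0.70 in KO cells, against 0.96, 1.90 and 1.53 in WT cells. It was well above background on all 6 arrays, and the groups stood 1.29 apart at their nearest values. The difference was -2.28 (SE 0.33, 95% interval -3.08 to -1.48), or 4.86-fold lower in KO, with a limma adjusted p of 0.0691.

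The other Car3 probes carry the accession of another transcript and were not well above background on all KO arrays. The probe at chr3:14865173-14865232 (A_55_P2936152, plus strand, mm9) read -4.44, -5.24 and -5.28 in KO cells, against -2.97, -2.05 and -2.59 in WT cells. None of the KO arrays was well above background there, so the KO signal was at least 2.60-fold lower (limma difference -2.45, SE 0.30, adjusted p = 0.0593 on the signals as measured). With normexp and quantile normalization the difference was -1.22, or 2.33-fold, which is under that bound. The probe at chr3:14865478-14865537 (A_55_P2934767, plus strand, mm9) read -2.26, -5.59 and -4.64 in KO cells, against -3.59, -2.46 and -2.88 in WT cells. KO replicate 1 was above all 3 WT arrays and the other KO arrays were below them and not well above background. Its difference was -1.18 (SE 0.81, limma adjusted p = 0.547), with -0.47 without KO replicate 2 and -2.14 without KO replicate 1. The first Car3 probe and the probe dim in all KO arrays were the only member probes called in any of the settings tried. Both were called with normexp and quantile normalization and with a variance trend, and the dim one with centring on the median. The dim probe entered the test through WT arrays alone, and the family was picked on this contrast. These calls are therefore a description and support nothing.

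The groups overlapped for the neighbouring cytosolic genes. Car13, Car1, Car3 and Car2 are 4 consecutive protein-coding genes on chromosome 3 in the RefSeq table. Car13, a cytosolic isoform (chr3:14662332-14662391, plus strand, mm9), read -0.22, -0.05 and -0.15 in KO cells, against -0.19, -0.12 and -0.19 in WT cells, with a difference of 0.03 (SE 0.08, 95% interval -0.16 to 0.21, limma adjusted p = 0.906) and overlapping groups. Car1, a red cell isoform outside the member list, gave a difference of 0.13 (SE 0.14, limma adjusted p = 0.705) by its 1 tested probe. Car2, the fast enzyme of osteoclasts and red cells (chr3:14900206-14900265, plus strand, mm9), read -3.11, -3.82 and -3.64 in KO cells, against -3.64, -3.25 and -4.40 in WT cells. Only KO replicate 1 and WT replicates 1 and 2 were well above background, the groups overlapped, and Car2 was not tested.

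Car5b, the mitochondrial isoform that supplies bicarbonate for synthesis inside that organelle, was the member furthest on the other side. Its probe (chrX:160449906-160449965, minus strand, mm9) read -3.53, -3.62 and -3.28 in KO cells, against -3.96, -4.34 and -3.84 in WT cells. Every KO array was above every WT array by at least 0.22, and the difference was 0.57 (SE 0.15, 95% interval 0.20 to 0.94, limma adjusted p = 0.167). These signals are dim, though well above background on all 6 arrays. The value lies beside the median of 0.56 given above for probes well above background on none of them. Of those still dimmer probes, 11 belong to the carbonic anhydrase family, with a median of 0.55. With normexp and quantile normalization the Car5b difference was 0.25. Whether it comes from the background of the arrays was not tested.

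Among the members without catalytic activity, Car11, a secreted protein, had a small separation. Its probe (chr7:52958874-52958933, plus strand, mm9) read -3.51, -3.63 and -3.47 in KO cells, against -3.00, -3.11 and -2.95 in WT cells. The KO arrays lay within a narrow range below the WT arrays, and the difference was -0.51 (SE 0.08, 95% interval -0.71 to -0.31), or 1.43-fold lower in KO (limma adjusted p = 0.0794). It was -0.28 with normexp and quantile normalization. Car8, which binds the inositol trisphosphate receptor, had 2 probes. One (chr4:8070545-8070604, minus strand, mm9) read -5.00, -6.26 and -1.47 in KO cells, against -5.48, -5.13 and -4.73 in WT cells, and was well above background on KO replicate 3 alone. The other was well above background on no array, so Car8 was not tested.

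**Figure D2:**
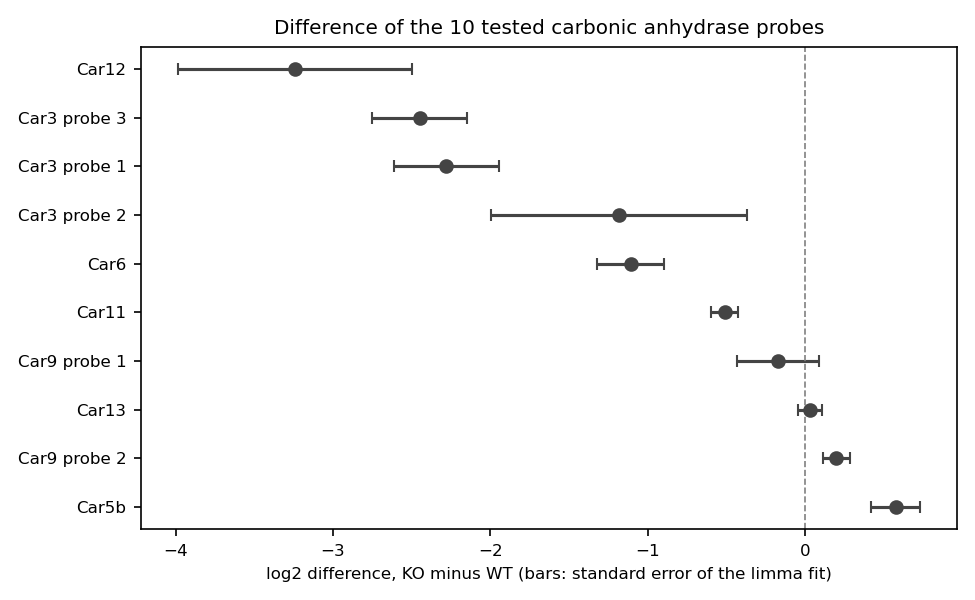
Log2 difference, KO minus WT, of the 10 tested carbonic anhydrase probes, with bars for the standard error of the limma fit; the dashed line is 0. Car12 lies at -3.24, the 3 Car3 probes between -2.45 and -1.18, Car6 at -1.11 and Car11 at -0.51, while Car9, Car13 and Car5b lie between -0.17 and 0.57.

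Within the groups, the arrays did not order the members alike. Among KO arrays, replicate 2 was the lowest for Car12, the first Car3 probe, Car6 and Car11, and the highest for the second Car9 probe. Among WT arrays, replicate 2 was the highest for Car12 and the first Car3 probe but the lowest for Car6 and Car11. With 3 arrays a group these orders are a description. Without the 2 arrays with Xist signal, the differences were -2.49 for the first Car3 probe, -1.18 for Car6, -0.49 for Car11 and 0.70 for Car5b.

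**Figure D3:**
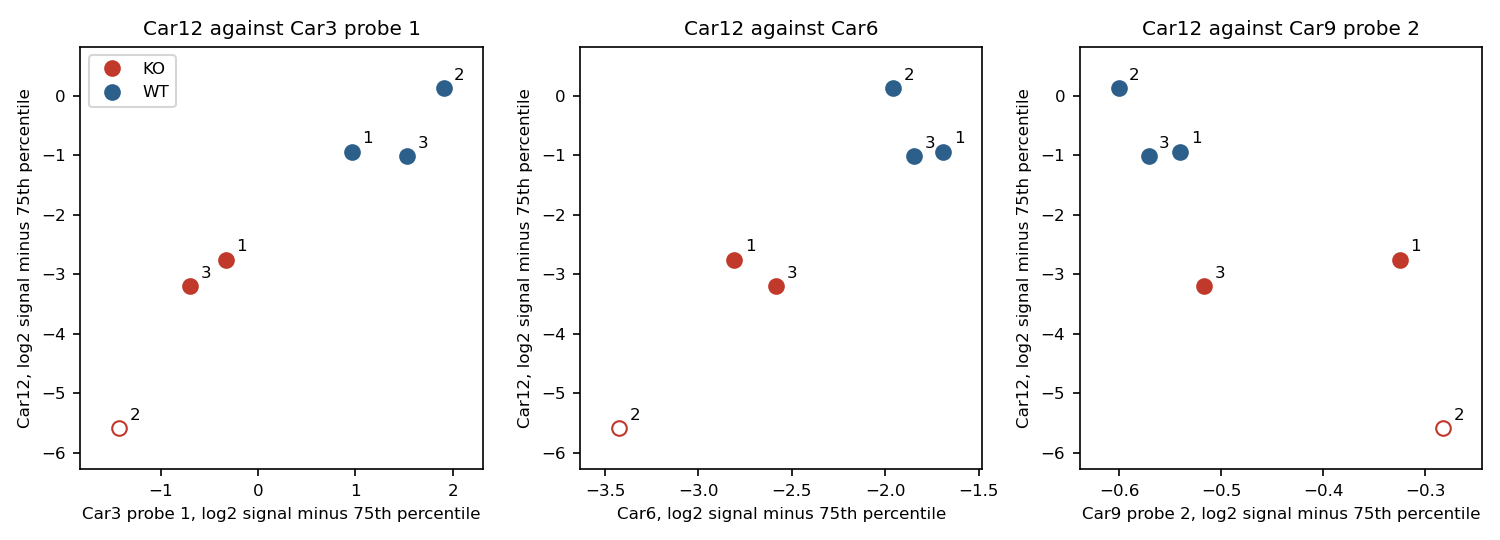
Car12 signal (vertical) against the signal of the first Car3 probe, of Car6 and of the second Car9 probe (horizontal), each as log2 minus the array's 75th percentile; points are arrays with their replicate number, KO red and WT blue, and the open point marks the array where Car12 was not well above background. KO arrays sit at the lower left of the Car3 and Car6 plots and at the lower right of the Car9 plot, with KO replicate 2 at the far end in each.

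The 5 genes whose signals were most like Car12 over the 6 arrays, among 15370 other genes, were Kcnma1 (Pearson r = 0.998), Samd14 (0.997), Sema3d (0.996), Gm41724 (0.996) and LOC102641351 (0.995). These are descriptions over 6 arrays that share 1 slide and fall into the KO and WT groups. Pearson r does not take the size of a difference into account. The difference was -0.29 for Samd14, -0.29 for LOC102641351 and -1.24 for Gm41724, against -3.24 for Car12. Kcnma1, a calcium-gated potassium channel, averaged -1.08 ± 0.49 in KO cells and 0.13 ± 0.22 in WT cells (SD, n = 3 each), a difference of -1.21 (SE 0.25, limma adjusted p = 0.105). Sema3d, a secreted guidance factor, read -2.36, -3.82 and -2.44 in KO cells, against -1.27, -0.73 and -1.13 in WT cells, a difference of -1.83 (SE 0.39, limma adjusted p = 0.113). Both had KO replicate 2 as the lowest and WT replicate 2 as the highest array, as Car12 did. They were picked for their likeness to Car12 over these same arrays, so the shared order is no separate result. The ranking also used the Car12 value of KO replicate 2, which was not well above background.

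Of 8 further genes with a carbonic anhydrase domain, 5 were tested and none was called. Of the 5, 4 had negative differences and 1 a positive one, with a median of -0.17, while over all 15371 genes 6789 were negative and 8582 positive with a median of 0.02. Ptprz1, a receptor phosphatase with a carbonic anhydrase-like domain outside the cell, had the furthest value. Its tested probe read 1.61, 0.34 and 1.12 in KO cells, against 2.37, 3.32 and 3.05 in WT cells, so that all KO arrays were lower. The difference was -1.89 (SE 0.37, limma adjusted p = 0.0946), or 3.71-fold lower in KO. Its relative Ptprg had 2 tested probes with differences of -0.36 (SE 0.10, limma adjusted p = 0.184) and -0.48 (SE 0.15, limma adjusted p = 0.212). Car7, a cytosolic enzyme of neurons and muscle, gave a difference of -0.11 (limma adjusted p = 0.705), and Car15, a lipid-anchored enzyme, one of -0.17 (limma adjusted p = 0.567). Car5a was well above background on no array, and Car10 and Car14 were so on WT replicate 3 alone, by 1 probe each.

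None of the partners that move bicarbonate, protons and lactate was called. Of 30 such transporter genes, 20 were tested, 11 with negative and 9 with positive differences, at a median of -0.03. Slc4a9, a bicarbonate transporter, averaged -0.99 ± 0.22 in KO cells and -0.49 ± 0.15 in WT cells (SD, n = 3 each), a difference of -0.50 (SE 0.14, limma adjusted p = 0.168). For Slc4a8, a sodium-driven bicarbonate exchanger, no KO array was well above background, and the signal was at least 1.11-fold lower there than in WT cells (limma adjusted p = 0.267). Slc16a7, a lactate transporter, and Slc4a3, an anion exchanger, had differences of 0.24 (limma adjusted p = 0.357) and 0.17 (limma adjusted p = 0.375).

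The vacuolar proton pump, which works beside Car2 in osteoclasts, was listed with its chloride partner (Clcn7 and Ostm1). Of these 25 genes 22 were tested, 6 with negative and 16 with positive differences, at a median of 0.10 and with none called. The osteoclast subunit of the pump, Atp6v0d2, averaged 2.96 ± 0.17 in KO cells and 2.60 ± 0.14 in WT cells (SD, n = 3 each), a difference of 0.37 (SE 0.12, limma adjusted p = 0.226). The subunits Atp6v1b2 and Atp6v1c1 had differences of 0.24 (limma adjusted p = 0.285) and 0.18 (limma adjusted p = 0.335). The subunit Atp6v0e2 read -0.57, -2.14 and -1.41 in KO cells, against -0.49, -0.56 and -0.43 in WT cells, with KO replicate 1 beside the WT arrays (difference -0.88, SE 0.36, limma adjusted p = 0.313).

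All 23 hypoxia sensors and targets were tested, with 9 negative and 14 positive differences, a median of 0.04 and none called. Ndrg1, a hypoxia- and stress-induced gene, read 2.53, 2.22 and 2.48 in KO cells, against 3.04, 3.43 and 3.30 in WT cells, so that the groups did not overlap (difference -0.85, SE 0.13, limma adjusted p = 0.0723). The collagen prolyl hydroxylase subunits P4ha2 and P4ha1 had differences of -0.62 (SE 0.10, limma adjusted p = 0.0823) and -0.54 (SE 0.16, limma adjusted p = 0.205). Pdk1, which holds pyruvate back from mitochondria under low oxygen, had one of 0.33 (SE 0.11, limma adjusted p = 0.24). The values of Car9, itself such a target, are given above and lay on both sides of 0.

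Markers of cell types that are known to use members of the family were read beside them. The 11 osteoblast markers were all tested, 10 with negative and 1 with a positive difference, at a median of -1.46. Their mean level per array was 1.93 to 2.80 in KO cells and 3.73 to 4.03 in WT cells, with KO replicate 2 the lowest and WT replicate 2 the highest of the 6, as for Car12. Ibsp, a bone matrix sialoprotein, fell to 3.58 ± 0.23 in KO cells, against 5.31 ± 0.23 in WT cells (SD, n = 3 each), a difference of -1.73 (SE 0.16, limma adjusted p = 0.0496). It was the 1 gene called in any of the lists, against 12 of all 15371 genes (0.0781%), and it was not called when any single array was left out. Phex, a protease of late osteoblasts, gave a difference of -2.61 (SE 0.50, limma adjusted p = 0.0932), Ifitm5, a mineralisation gene, one of -1.85 (SE 0.28, limma adjusted p = 0.0718) and Runx2, the osteoblast master regulator, one of -1.24 (SE 0.25, limma adjusted p = 0.101). The 1 marker on the other side was Spp1, named after its value was seen, at 0.25 (SE 0.09, limma adjusted p = 0.259). The part of osteoblast content in the Car12, Car3 and Car6 values was not tested.

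Cartilage, stromal, muscle and nerve markers were read in the same way. Of 7 chondrocyte markers 5 were tested, 3 with negative and 2 with positive differences, at a median of -1.26, which was 0.09 with no filter on dim probes. Their mean level was -2.60 to -2.18 in KO cells and -2.12 to -2.00 in WT cells, and Acan and Matn3 were well above background on no array. Col11a2, a fibrillar collagen chain, gave a difference of -1.72 (SE 0.27, limma adjusted p = 0.0723), and Col2a1, the main cartilage collagen, one of 0.41 (SE 0.35, limma adjusted p = 0.632). All 10 stromal progenitor markers were tested, 7 with negative and 3 with positive differences, at a median of -0.09, and Nt5e, an ectonucleotidase, gave a difference of -1.21 (SE 0.23, limma adjusted p = 0.0932). Cxcl12, a chemokine that retains blood stem cells, lay on the other side, with all KO arrays above the WT arrays (difference 0.37, SE 0.12, limma adjusted p = 0.227). Skeletal muscle, where Car3 is abundant, had 4 of 9 markers tested at a median of -0.12, and Ckm, Myh7 and Myog were well above background on no array. Of 7 Schwann and neural markers 4 were tested at a median of -0.21, and Gfap and Map2 were well above background on no array.

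Fat and blood lineages gave other values. Adipocytes are a second known site of Car3, and 8 of 10 adipocyte markers were tested, 1 with a negative and 7 with positive differences, at a median of 0.23. Fabp4, a fatty acid carrier, averaged 4.58 ± 0.04 in KO cells and 4.19 ± 0.07 in WT cells (SD, n = 3 each), a difference of 0.39 (SE 0.08, limma adjusted p = 0.0945), and Lpl, the lipoprotein lipase, had one of 0.52 (SE 0.13, limma adjusted p = 0.141). The 1 adipocyte marker with a negative difference was Adipoq, named after its value was seen, at -0.41 (SE 0.48, limma adjusted p = 0.742). The 3 Car3 probes had negative differences, while 7 of the 8 tested adipocyte markers had positive ones. The part of adipocyte content in the Car3 values was not tested. All 16 macrophage and monocyte markers were tested, 3 with negative and 13 with positive differences, at a median of 0.12. Their mean level was 5.48 to 5.59 in KO cells and 5.36 to 5.46 in WT cells, the highest of the lists on each array. That of the stromal progenitor markers was 1.28 to 1.57 in KO cells and 1.47 to 1.73 in WT cells. The share of myeloid cells in the samples was not tested. Of 12 osteoclast markers 11 were tested, 4 with negative and 7 with positive differences, at a median of 0.22. Tnfrsf11a, the receptor for the osteoclast factor RANKL, averaged 2.87 ± 0.03 in KO cells and 2.47 ± 0.07 in WT cells (SD, n = 3 each; difference 0.40, SE 0.07, limma adjusted p = 0.0897). Ctsk, the collagen-cutting protease of osteoclasts, averaged 3.55 ± 0.22 in KO cells and 3.95 ± 0.15 in WT cells (SD, n = 3 each; difference -0.40, SE 0.14, limma adjusted p = 0.238), while Calcr, the calcitonin receptor, was well above background on none. Of 9 erythroid markers, 7 were well above background on no array, among them Alas2, and the 2 tested had a median of -0.25, which was -0.09 without KO replicate 1, -0.03 without WT replicate 3, -0.42 without WT replicate 2, -0.40 without KO replicate 3 and 0.13 without the 2 arrays with Xist signal. None of these lists held a called gene.

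**Figure D4:**
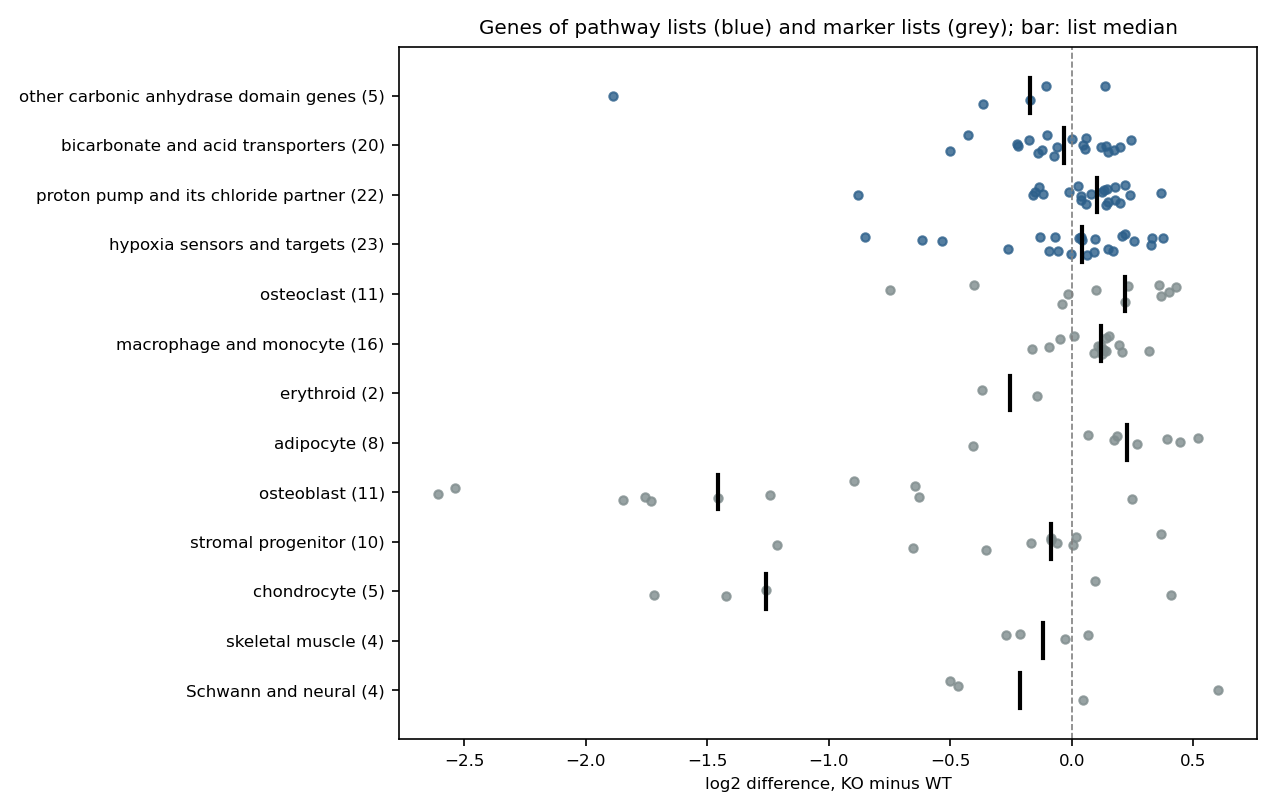
Log2 difference, KO minus WT, of each tested gene in the pathway lists (blue) and cell type marker lists (grey), with the number of tested genes in brackets and a bar at the median of each list; the dashed line is 0. The osteoblast and chondrocyte medians lie at -1.46 and -1.26, while the transporter, proton pump and hypoxia medians lie between -0.03 and 0.10.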

How the data were processed

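RNA of 3 KO and 3 WT samples was measured on 1-colour Agilent arrays of 62976 spots, 59305 of them not controls. The intensity values are the background-corrected processed signals, mean signals and median backgrounds of Agilent Feature Extraction 10.7.1.1, per the file headers; version 9.1 is named in the submitters' processing notes. Probe positions are those of build mm9, per the file headers. The deposited series table holds log2 values, each column with a median of 6.15, and served as an alternative. The sources used here do not say how it was normalized. Groups and replicate numbers come from the sample titles.

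Log2 processed signals were set against the 75th percentile of each array over non-control probes. Outlier spots (49 to 131 per array) were left out, spots of a probe were averaged, and no spot was saturated. A probe was tested if all arrays of KO, or all of WT, had it well above background in at least a 0.5 share of its spots. The test was limma 3.58.1 in R 4.3.3 (lmFit and eBayes, two-sided, no term besides group; 4 residual degrees of freedom, 2.65 prior), with Benjamini-Hochberg adjustment over all 28607 probes. A gene stood for its tested probe with the highest mean. Where a group had no array well above background, the fold is a bound: the brighter group's mean against the dim group's, after raising each dim array to its lowest signal well above background where that is higher. Precision is limited by the number of arrays. Genes were named through RefSeq (GRCm38.p6): 32994 probes by accession, 10224 by symbol, 520 by synonym, and 2574 kept the file's name.

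The members and lists were chosen with earlier results of these data known. Named genes are all member probes, up to 4 genes per list with the smallest unadjusted p plus any past the threshold, the 5 most like Car12 by Pearson r, and the sort markers. The fit was tested on simulated data. Same-numbered KO and WT arrays lie in the same column of the slide (1, 3 and 4). Their deviations from the group means had r = 0.06, 0.15 and -0.03, and the numbers were not treated as pairs in the fit reported. With so few arrays, these values cannot show that pairing is absent. Alternatives were other background correction and normalization, the deposited table, other scalings and filters, a variance trend, the replicate block, the Xist arrays, the mean of a gene's probes and leaving out each array.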

Additional observations from a re-analysis of the deposited data

How the results depend on the processing

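The Car12 difference was negative under all 17 alternatives that gave a value, from -3.99 to -2.24, and from -3.79 to -2.37 when single arrays were left out. It could not be given when probes had to be well above background on all 6 arrays, since Car12 then was not tested. The alternative that raised the dim KO array (-2.71) was chosen after seeing the data. The number of member probes called, 0 in the fit reported, was 2 with normexp and quantile normalization, 2 with a variance trend, 1 with centring on the median, and 0 to 0 when single arrays were left out. The number of list genes called, 1 in the fit reported, was 5 with normexp and quantile normalization, 8 with a variance trend, 0 with no filter on dim probes, 0 without the 2 arrays with Xist signal, 0 with a term for Xist signal, and 0 to 0 when single arrays were left out. Over all probes, 17 were called in the fit reported, against 239 with normexp and quantile normalization, 220 with a variance trend, 101 with centring on the median, 28 with the percentile over detected probes, 9 when all 6 arrays had to be well above background, 0 with no filter on dim probes, 0 with the Xist term, and 2 to 31 when single arrays were left out (2 without WT replicate 1, 4 without WT replicate 2). With the replicate number as a block, 0 list genes, 0 member probes and 0 of all probes were called, and the Car12 difference stayed at -3.24 (SE 0.85); KO replicate 1 deviated most like WT replicate 3 (r = 0.18), not like its own number. Leaving out WT replicate 1 turned the sign of the first Car9 probe (0.15), and leaving out KO replicate 2 that of Car13 (-0.02). List medians also turned sign: the transporters (0.05) and muscle (0.04) without KO replicate 2, the stromal markers (0.02) without WT replicate 1, the erythroid markers (0.13) without the Xist arrays, and, with no filter on dim probes, the transporters (0.07), erythroid (0.16), chondrocyte (0.09), muscle (0.07) and neural (0.05) markers. A slide or scan block was not run, because all arrays share both. With 3 arrays a group, signals near background limit Car2, Car4, Car8 and the dimmer Car3 probes. The cause of these changes was not tested.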
